A study of Homo sapiens with 2 samples.

Results

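The cells described here are the 100 SH-SY5Y cells with the highest summed level of S100A11 and S100A10, out of 1920 cells that passed the filters and 2879 cells in all. SH-SY5Y is a human neuroblastoma line that grows as a monolayer, and all cells of the study were untreated. One culture was divided into 2 flasks, SplitA and SplitB, whose cells were tagged with different hashtag antibodies (TotalSeq-A), pooled, and sequenced together as 1 mRNA library and 1 hashtag library. The flask of a cell is therefore known only from its hashtag counts, and SplitA and SplitB are 2 flasks of 1 culture in the same condition. No control or treated group exists, and the line is the only cell type that was put into the experiment.

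A cell was assigned to a flask when one hashtag had at least 3 times the counts of the other and the other stayed within the limit of counts used by the authors, which gave 1179 SplitA cells, 1605 SplitB cells and 95 multiplets. Cells with at least 1000 genes and with less than 15% of their UMIs (unique molecular identifiers, one for each captured transcript) from the 13 mitochondrial protein genes were then kept, 829 in SplitA and 1091 in SplitB. The members, as the 100 cells are called below, are 37 cells of SplitA and 63 of SplitB. They are 4.46% of the kept SplitA cells (95% exact binomial interval 3.16 to 6.1) and 5.77% of the kept SplitB cells (4.47 to 7.33). The other 792 cells of SplitA and 1028 cells of SplitB served as the comparison within each flask. These intervals, like all those below, cover counting error only.

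The members were sequenced about as deeply as the other cells. The median was 6782 UMIs per member in SplitA and 6332 in SplitB, against 6321.5 and 6604 UMIs in the other cells of these flasks. The median number of genes per cell was 2041 and 1985 in members and 1881 and 1943.5 in other cells. The median mitochondrial share was 8.35% and 7.66% in members and 8.48% and 8.66% in other cells. Cells tagged by both antibodies were left out, while doublets formed within a flask carry 1 hashtag and were not removed.

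S100 proteins are small calcium-binding proteins. S100A10 forms a complex with annexin A2 at the plasma membrane, S100A11 binds annexin A1, and both are, together with S100A6 and vimentin, abundant in cells of mesenchymal character. Neuroblastoma lines are known to hold cells of an adrenergic state, which express HAND2, GATA3 and the enzymes of noradrenaline synthesis, and cells of a mesenchymal state, which express vimentin, fibronectin, CD44 and transcription factors such as PRRX1 and the SNAI genes. Older work on SH-SY5Y and its parent line also described flat, substrate-adherent cells with Schwann cell or glial features, so the genes of both kinds of cell were examined in the members.

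S100A11 and S100A10 are neighbours on chromosome 1. S100A11 (ENSG00000163191) lies at chr1:152032506-152047907 and S100A10 (ENSG00000197747) at chr1:151982915-151993859 of GRCh38 in the GENCODE release 44 annotation, both on the minus strand. S100A6 (ENSG00000197956), at chr1:153534599-153536244, is part of the S100 gene cluster farther along the chromosome and starts 1487 kb beyond the end of S100A11. TFPI2 (ENSG00000105825), a secreted inhibitor of serine proteases, is on chromosome 7 (chr7:93885396-93890753). The sequences from 250 bases before to 50 bases after the start of these 4 genes are shown because they are the regions at which the genes that mark the members begin. They were taken from RefSeq (build GRCh38.p14) and are written 5′ to 3′ on the strand of the gene, the minus strand for all 4. The RefSeq start of S100A11 lies within the longer GENCODE gene. Capitals mark GC boxes (GGGCGG, or CCGCCC on the other strand) and AP-1 motifs (TGANTCA, where N is any base).
S100A11, chr1:152036955-152037254: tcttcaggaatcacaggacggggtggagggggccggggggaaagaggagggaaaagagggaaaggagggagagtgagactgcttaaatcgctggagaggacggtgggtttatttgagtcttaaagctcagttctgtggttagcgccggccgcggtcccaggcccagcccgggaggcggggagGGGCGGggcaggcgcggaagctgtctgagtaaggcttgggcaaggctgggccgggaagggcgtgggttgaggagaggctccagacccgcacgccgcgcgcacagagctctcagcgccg
S100A10, chr1:151993810-151994109: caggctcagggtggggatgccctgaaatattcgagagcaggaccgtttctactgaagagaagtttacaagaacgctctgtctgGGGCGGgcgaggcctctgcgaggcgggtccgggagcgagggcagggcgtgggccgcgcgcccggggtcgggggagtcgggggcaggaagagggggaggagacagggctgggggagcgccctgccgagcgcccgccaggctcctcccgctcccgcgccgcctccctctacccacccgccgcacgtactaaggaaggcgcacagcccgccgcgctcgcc
S100A6, chr1:153535942-153536241: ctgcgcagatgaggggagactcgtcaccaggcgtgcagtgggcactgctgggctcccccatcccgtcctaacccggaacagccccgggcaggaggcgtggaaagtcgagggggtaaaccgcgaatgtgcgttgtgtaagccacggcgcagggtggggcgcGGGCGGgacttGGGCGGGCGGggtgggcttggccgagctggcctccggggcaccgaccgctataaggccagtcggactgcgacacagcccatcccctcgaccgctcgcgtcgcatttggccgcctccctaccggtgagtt
TFPI2, chr7:93890704-93891003: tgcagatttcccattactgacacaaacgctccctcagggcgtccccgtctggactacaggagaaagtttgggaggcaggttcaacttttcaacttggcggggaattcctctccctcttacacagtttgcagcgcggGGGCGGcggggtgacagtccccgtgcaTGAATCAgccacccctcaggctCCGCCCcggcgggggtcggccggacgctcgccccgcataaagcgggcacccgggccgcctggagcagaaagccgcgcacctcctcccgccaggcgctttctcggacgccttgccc
A GC box was present once in the S100A11 and S100A10 sequences, 3 times in S100A6, of which a pair overlap, and 2 times in TFPI2. Of 35116 RefSeq promoters of the same length, 44.95% hold a GC box on either strand. The AP-1 motif was found once, in TFPI2, and is present in 7.71% of the promoters. The letters GGAATG, bound by TEAD factors, were in none of the 4 sequences and in 14.03% of all promoters.

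S100A11 and S100A10 chose the members, so their levels are a description. Of the kept cells, 1562 (81.4%) had no UMI of either gene and 358 had at least 1. The members hold 57.2% of the UMIs of both genes together, with 2 to 38 UMIs per cell and a median of 8.5. All 100 members had S100A11 UMIs, while 69 also had S100A10 UMIs and 31 had S100A11 alone.

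S100A11 was at 1014 CPM (UMIs of the gene per 1000000 gene UMIs in those cells) in SplitA members and 1169 CPM in SplitB members, against 48.0 and 51.2 CPM in the other cells. S100A10 was at 364 CPM and 278 CPM in the members and 8.75 and 13.1 CPM in the other cells. Of the other cells, 13.6% in SplitA and 14.6% in SplitB had a UMI of either gene. Because the culture holds no cell type known to lack these genes, the share of such cells that free RNA in the droplets would give was not measured.

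**Figure D1:**
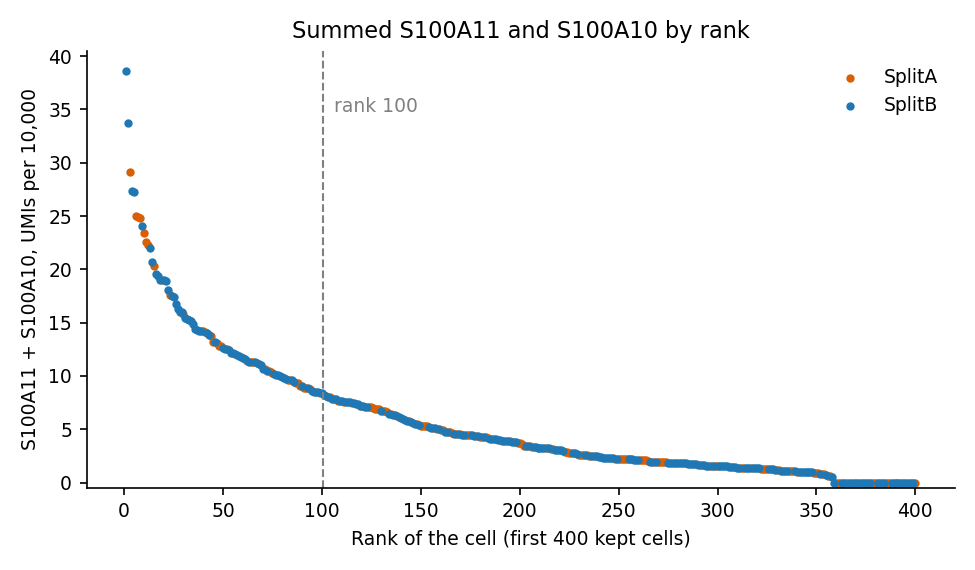
Summed S100A11 and S100A10 level (vertical axis, UMIs per 10,000 UMIs of the cell) of the first 400 of 1920 kept cells, ordered from the highest to the lowest (horizontal axis, rank); each point is a cell, coloured by flask, and the dashed line stands after rank 100. The values fall without a gap at the line, from 38.6 at rank 1 to 8.37 at rank 100 and 8.18 in the next cell, and are 0 after rank 358.

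The values ran on without a gap at the 100th rank. The sum was 38.6 UMIs per 10,000 in the first cell and 12.7 in the 50th. It was 8.38 in the 99th and 8.37 in the 100th, against 8.18 and 8.16 in the next cells outside, as the plot of the sum by rank shows. The 100th cell had 2 UMIs of both genes among 2389 UMIs, the lowest number of any member.

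All further comparisons leave S100A11 and S100A10 out of the genes and of the totals. UMIs were summed for the members and for the other cells of each flask, and the 4 sums were compared with edgeR with the flask as a block. Of 10366 genes with at least 50 UMIs over the kept cells, 452 (4.36%) were higher in the members and 382 (3.69%) lower at a Benjamini-Hochberg adjusted p under 0.05, 834 (8.05%) in all. Of these, 833 had the same direction in both flasks. The median log2 fold change over all tested genes was -0.05. The test rests on 2 flasks of 1 culture and 1 residual degree of freedom, and takes the choice of members as given. Its p-values and standard errors (SE) use an estimate of spread that draws on all genes together. A small p-value therefore does not mean that the 2 flasks gave like differences for that gene, and no spread between cultures was measured. A second tool, DESeq2, called 123 higher and 78 lower genes, all of them also called by edgeR in the same direction. Of the genes called lower by edgeR, 19 had no UMI in the members.

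**Figure D2:**
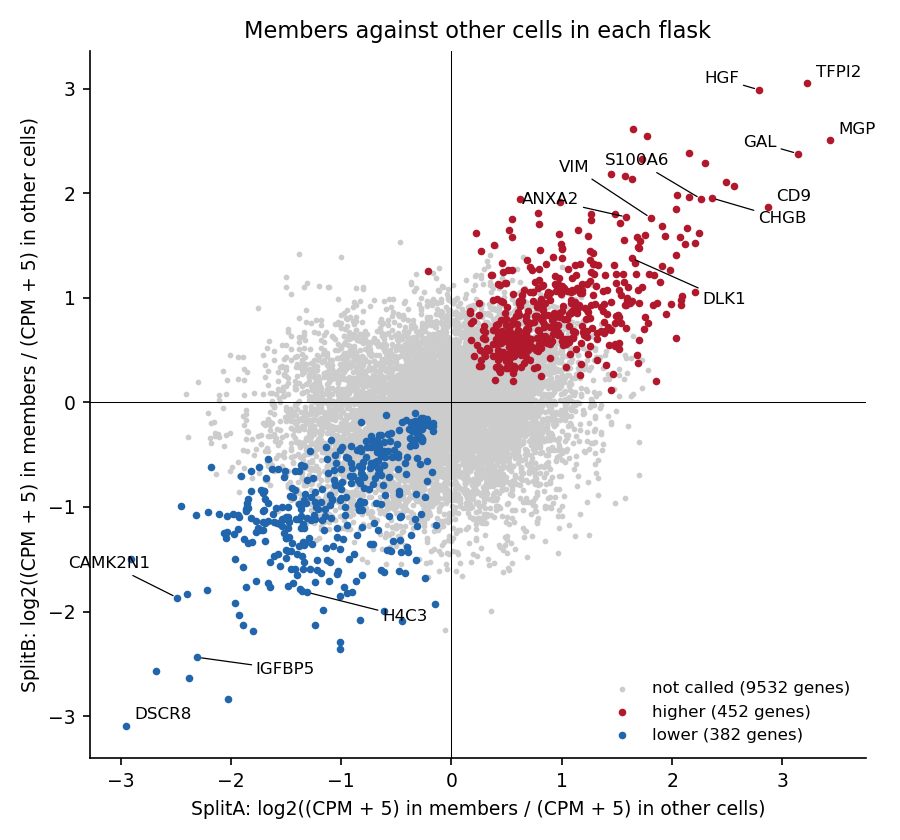
Difference between members and other cells in SplitA (horizontal axis) and in SplitB (vertical axis), as log2 of the ratio of CPM + 5; each point is 1 of 10366 genes, coloured by the edgeR call. The genes called higher (452) lie to the upper right and those called lower (382) to the lower left, TFPI2, MGP, HGF and GAL farthest in the one direction and DSCR8 in the other.

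S100A6, TFPI2 and VIM, the markers that the ranking did not use, were all higher in the members of both flasks. S100A6, a calcium-binding protein of the same family, was at 1238 CPM (95% Poisson interval 1108 to 1379) in SplitA members and 255 CPM (241 to 268) in the other SplitA cells. In SplitB it was at 1066 CPM (974 to 1165) in members and 273 CPM (261 to 285) in other cells. The summed level of the members of each flask thus lay above that of the other cells of both flasks, with a log2 fold change of 2.06 (SE 0.10; edgeR adjusted p = 8.46e-95).

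TFPI2 was at 305 CPM in SplitA members and 381 CPM in SplitB members, and at 28.1 and 41.4 CPM in the other cells (log2 fold change 3.24, SE 0.15; edgeR adjusted p = 2.27e-102). It was not a gene of every member: 50 of the 100 had a TFPI2 UMI, against 222 of the other cells (12.2%). VIM, the intermediate filament vimentin (chr10:17228241-17237593), was at 350 CPM in SplitA members and 419.8 CPM in SplitB members, and at 96.6 and 120.1 CPM in the other cells (log2 fold change 1.78, SE 0.13; edgeR adjusted p = 3.38e-41).

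S100A6 UMIs were present in 99 members and 65.2% of the other cells, and VIM UMIs in 86 members and 37.0% of the other cells. When every cell was thinned to 2000 UMIs, S100A6 was found in 78.4% of SplitA and 81.0% of SplitB members against 32.2% and 33.3% of the other cells. VIM was then found in 45.9% and 58.7% of members against 14.5% and 17.3% of other cells, and TFPI2 in 32.4% and 30.2% against 3.91% and 5.74%.

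The 3 markers occurred together in 48 members, 20 of SplitA and 28 of SplitB, and in 109 of the other cells (5.99%). A further 39 members had UMIs of 2 of them, 13 had UMIs of 1, and none lacked all 3, whereas 421 of the other cells (23.1%) had none. The members therefore overlap with the other cells for each marker taken alone. The S100A6 level per member ranged from 0 to 38.6 UMIs per 10,000 in SplitA (median 10.4) and from 1.39 to 23.4 in SplitB (median 9.55), while in the other cells it ranged from 0 to 26.8 (median 1.66) and from 0 to 19.3 (median 1.64).

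Among the wider S100 and annexin family, 13 of 26 genes could be tested and 5 were higher in the members, none lower, with a median log2 fold change of 1.08 against -0.05 for all genes (2 called by DESeq2). This median depended on low genes and on the flask. It was 0.362 in SplitA alone, 0.629 with a minimum of 200 UMIs and 0.556 without the 5% of cells with most UMIs. The median of 1.08 is the value of S100B. With 48, 40 and 30 UMIs in the other cells, S100B, S100A2 and S100A16 passed the minimum for testing only through the members. That limit favoured positive fold changes among such rare genes, and S100A16 is among the 5 called higher. ANXA2, the partner of S100A10 in the membrane complex, was at 105 CPM in SplitA members and 124 CPM in SplitB members, and at 31.8 and 32.8 CPM in other cells (log2 fold change 1.80, SE 0.21; edgeR adjusted p = 9.45e-15). ANXA1, a known partner of S100A11, had no UMI in any kept cell. ANXA5, the next most abundant annexin, did not pass the test, with 29 UMIs in members and 419 in the other cells and a log2 fold change of 0.21.

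S100A13 and S100A16 were higher with few UMIs. S100A16 was at 26.3 and 34.8 CPM in members and 2.05 and 2.62 CPM in other cells (log2 fold change 3.65), from 23 UMIs in 14 members. S100A13 was at 15.1 and 37.0 CPM in members and 8.001 and 5.92 CPM in other cells (log2 fold change 2.04). S100A13 and S100A16 had no adjusted p in DESeq2, which set them aside for low counts.

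AHNAK, a giant scaffold protein that binds the S100A10 and annexin A2 complex, was called higher (log2 fold change 1.12, edgeR adjusted p = 0.000802) but differed between the flasks. It was at 113 CPM in SplitA members and 27.5 CPM in other SplitA cells, and at 34.8 and 29.5 CPM in SplitB, where members and other cells were close, and DESeq2 did not call it. S100A4, which lies within 10 kb of S100A6 in the annotation, had 13 UMIs in members and 236 in other cells, with a log2 fold change of -0.13 (edgeR adjusted p = 0.918). S100A8, S100A9 and S100A12 had no UMI in any kept cell.

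The mesenchymal genes fell into different groups. Of 43 matrix and surface genes, 19 could be tested, of which 6 were higher and 3 lower in the members, with a median log2 fold change of 0.19. The sign of this median depended on the flask, at -0.0824 without SplitA and 0.465 without SplitB, and on the number of members, at -0.0529 with 50. Besides VIM, the higher ones were LGALS1, CD63, TIMP1, TIMP3 and COL3A1. LGALS1, the carbohydrate-binding protein galectin-1, was the most abundant of the list, at 3650 CPM in SplitA members and 3659 CPM in SplitB members and at 1513 and 1539 CPM in other cells (log2 fold change 1.21, SE 0.08; edgeR adjusted p = 1.82e-47). These summed values were close between the flasks within each class and did not overlap between classes, but single cells did overlap. Per cell, on the scale used for S100A6, LGALS1 ranged from 13.2 to 80.8 in SplitA members (median 37.4). In SplitB members it ranged from 0 to 94.1 (median 37.9). In the other cells it ranged from 0 to 69.8 in SplitA and from 0 to 96.4 in SplitB, with a median of 13.6 in each flask.

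CD63, a tetraspanin of late endosomes and secreted vesicles, was at 414 and 481 CPM in members and 200.96 and 223 CPM in other cells (log2 fold change 1.03). TIMP1, an inhibitor of matrix metalloproteinases, was at 173 and 150.1 CPM in members and 76.3 and 80.4 CPM in other cells (log2 fold change 0.96), and TIMP3, a second such inhibitor, was at 37.6 and 74.0 CPM against 26.1 and 26.3 CPM (log2 fold change 1.14; not called by DESeq2). COL3A1, a fibrillar collagen chain, was at 37.6 and 32.6 CPM in members and 2.61 and 3.72 CPM in other cells (log2 fold change 3.34). It was found in 18 members and 37 of the other cells (2.03%).

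Other genes of this list went the other way or were nearly absent. IGFBP5, a secreted binding protein of insulin-like growth factors, was at 11.3 and 8.70 CPM in members and 75.4 and 69.3 CPM in other cells (log2 fold change -2.93, SE 0.39; edgeR adjusted p = 6.61e-12). ENG, a TGF-beta co-receptor, and PDGFRA, a growth factor receptor, were also lower, by log2 fold changes of -2.84 and -2.40, on 2 UMIs each in the members. CD44, a surface marker of mesenchymal neuroblastoma cells, was too rare to test, with 11 UMIs in 9 members (1 of SplitA, 8 of SplitB) and 14 UMIs in 13 of the 1820 other cells. COL1A2, CAV1, POSTN, DCN, AXL and THBS1 had no UMI in any kept cell, and FN1, fibronectin, had 4 UMIs in members and 22 in other cells.

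Mesenchymal transcription factors were mostly rare in members and other cells alike. Of 22 such genes, 12 had no UMI in any member and 8 could be tested, with a median log2 fold change of -0.11. None of the 8 was called by edgeR or DESeq2, which for so few genes is close to the background of 8.05% called by edgeR. An unadjusted edgeR p under 0.05 was found for 1 of them and for 1925 of all 10366 genes tested. TWIST1, the most abundant, was at 117 and 137 CPM in members and 169.5 and 164 CPM in other cells (log2 fold change -0.41, edgeR adjusted p = 0.107). SNAI2 had 2 UMIs in members and 95 in other cells (log2 fold change -1.47, edgeR adjusted p = 0.439). PRRX1, RUNX2, MEOX1 and MEOX2 had no UMI in any kept cell, and FOSL1, RUNX1, SIX4 and WWTR1 had none in the members. SOX9, a factor of neural crest and glial cells, was too rare to test, with 9 UMIs in 7 members and 19 UMIs in 18 of the other cells.

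**Figure D3:**
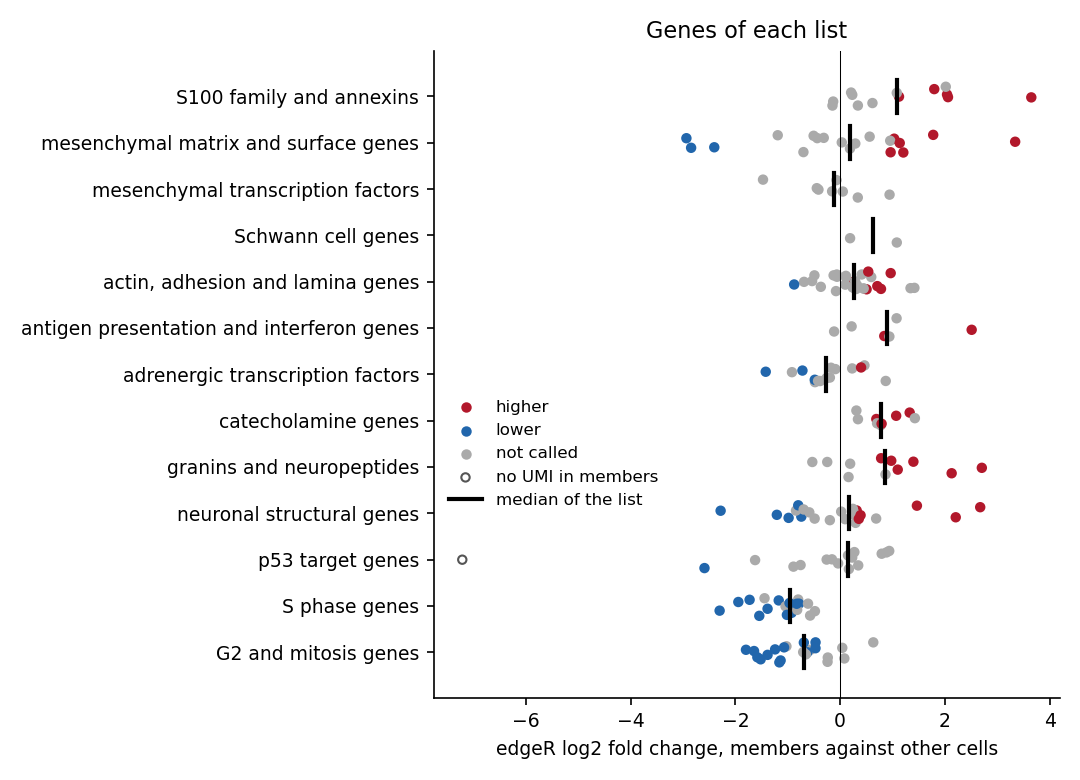
edgeR log2 fold change of members against other cells (horizontal axis) for each tested gene of 13 lists (rows); points are genes, coloured by call, black bars are the medians of the lists, and the open circle is GDF15, which had no UMI in the members and whose fitted value has no meaning as a size. Called genes of the S100, granin and catecholamine lists lie to the right, those of the S phase and G2 lists to the left, and the transcription factors of the mesenchymal list lie around 0 without a call.

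Schwann cell genes other than PMP22 were rare or absent in members and in other cells. Of 18 genes, 13 had no UMI in the members and only S100B and PMP22 could be tested. Neither was called by edgeR or DESeq2, and 0 of them had an unadjusted edgeR p under 0.05. S100B had 6 UMIs in 6 members and 48 UMIs in 46 of the other cells (log2 fold change 1.08, edgeR adjusted p = 0.564). It passed the minimum for testing only through the members. NGFR was too rare to test, with 6 UMIs in 5 members and 29 UMIs in 28 of the other cells. PMP22, a membrane protein of myelin that other cells also express, was at 52.7 and 41.3 CPM in members and 34.98 and 41.0 CPM in other cells (log2 fold change 0.19, edgeR adjusted p = 0.80). SOX10, CDH19, MBP, FOXD3, GFAP and FABP7, which define the Schwann and glial lineage, had no UMI in any of the 1920 kept cells. A count of 0 allows up to 3 UMIs, a one-sided limit where the Poisson intervals given above are two-sided. These genes were thus not detectable at this depth.

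Markers of other tissues were also low. Leukocyte markers had no UMI, and endothelial markers had none in the members. Of the fibroblast markers, COL3A1 was called higher by edgeR, on low counts that passed the minimum only through the members, and PDGFRA was lower. FBLN1, the most abundant, was at 37.6 and 28.3 CPM in members and 45.2 and 42.8 CPM in other cells (log2 fold change -0.51, not called). The melanocyte marker PMEL had 3 UMIs and the epithelial keratin KRT19 had 12 UMIs in the members, against 26 and 159 in other cells. The members are therefore described by their leading genes and are not given a cell type.

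Most transcription factors of the adrenergic state did not pass the test. Of 18 such genes, 15 could be tested, of which 1 was higher and 3 lower, with a median log2 fold change of -0.26 (2 called by DESeq2). GATA2, GATA3 and HAND2, factors of the sympathetic lineage, did not pass the test: GATA3 was at 245 and 233 CPM in members and 252 and 239 CPM in other cells (log2 fold change -0.09, edgeR adjusted p = 0.803), and HAND2 was at 395 and 376 CPM against 315 and 317 CPM (log2 fold change 0.23, edgeR adjusted p = 0.274). HAND2 UMIs were found in 88 members and GATA3 UMIs in 63.

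PHOX2A, a homeobox factor of autonomic neurons and the most abundant of the list, was higher, at 989.5 and 831 CPM in members and 665 and 653 CPM in other cells (log2 fold change 0.40, edgeR adjusted p = 0.00118). SOX11 and HAND1 were lower by edgeR alone, with log2 fold changes of -0.72 and -0.48.

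Genes of catecholamine synthesis and storage were higher or not called. Of 9 tested genes 4 were higher and none lower, with a median log2 fold change of 0.78. DBH, which makes noradrenaline from dopamine, was at 594 and 452 CPM in members and 314 and 299.9 CPM in other cells (log2 fold change 0.69, edgeR adjusted p = 5.55e-08). DDC, which makes dopamine, was at 297 and 226 CPM in members and 88.8 and 105 CPM in other cells (log2 fold change 1.33). CYB561, the cytochrome that supplies electrons to DBH inside vesicles, and SLC18A1, a vesicular monoamine transporter, had log2 fold changes of 1.07 and 0.79. TH, the enzyme of the first step, had 1 UMI in the members and 17 in other cells and could not be tested.

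Of 11 tested genes of neuropeptides and granins, the cargo of dense-core vesicles, 6 were higher in the members (GAL, CHGB, SCG2, CHGA, NPY and VGF), 5 were not called and none was lower, with a median log2 fold change of 0.865. GAL, the neuropeptide galanin, was at 7939 CPM in SplitA members and 5599 CPM in SplitB members, against 897 and 1073 CPM in the other cells (log2 fold change 2.7, SE 0.08; edgeR adjusted p = 1.60e-227). Per cell it ranged from 1.77 to 397 UMIs per 10,000 in SplitA members (median 47.9) and from 0 to 267 in SplitB members (median 34.5). The medians of the other cells were 4.22 and 4.65, but single other cells reached 176 and 238, so members and other cells overlapped.

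CHGB, the granin secretogranin-1, was at 816 and 572 CPM in members and 155 and 144 CPM in other cells (log2 fold change 2.13, SE 0.11; edgeR adjusted p = 4.05e-80). CHGA, chromogranin A, was at 1020 CPM in SplitA members and 559 CPM in SplitB members, against 348 and 328 CPM in other cells (log2 fold change 1.10). Both granins were higher in the members of SplitA than in those of SplitB. NPY, neuropeptide Y, was at 643 and 820.1 CPM in members and 321 and 398 CPM in other cells (log2 fold change 0.98).

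The cells highest for these genes were in part the same cells. Of the 100 kept cells highest in GAL, 46 were members, as were 46 of the 100 highest in S100A6, 38 of the 100 highest in TFPI2, 36 in CHGB and 25 in VIM. Of the 100 cells highest in CDKN1A, the cell cycle inhibitor p21, 7 were members. By flask, members were 20 of the 39 SplitA cells and 26 of the 61 SplitB cells highest in GAL, which is 54.1% and 41.3% of the members of these flasks.

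To set members beside other cells of like GAL level, the members were compared with the 3 other cells per member of the same flask that were nearest in GAL, a choice made after the data were seen. S100A6, TFPI2 and VIM remained called higher by edgeR, with smaller log2 fold changes of 1.09, 1.76 and 0.88. The matching was not complete, since GAL itself was still at 7909 and 5581 CPM in members and 3295 and 3192 CPM in the matched cells (log2 fold change 1.03). The number of genes called fell to 159 higher and 105 lower, and the medians of several lists moved toward 0. The median log2 fold change was 0.419 for the S100 and annexin genes (2 of 8 tested higher), 0.264 for granins and neuropeptides (3 of 10 higher), 0.0756 for catecholamine genes (1 of 7 higher) and -0.314 for G2 and mitosis genes (2 of 18 lower). DBH was no longer called, at 592 and 451 CPM in members and 488 and 486.5 CPM in matched cells (edgeR adjusted p = 0.862). The mesenchymal matrix and surface genes had 5 of 15 higher, 1 lower and a median of 0.264, and S phase genes 8 of 19 lower and a median of -0.879. The median of the fibroblast markers, 2 genes here and 3 before, turned from -0.51 to 0.864. DLK1, a membrane protein of neuroendocrine progenitors that was picked after its values were seen, was at 7216 and 6237 CPM in members against 2325 and 2397 CPM in all other cells (log2 fold change 1.45). Against the cells matched in GAL, which were at 5156 and 4148 CPM, its log2 fold change was smaller, 0.533 (edgeR adjusted p = 2.09e-12).

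The largest positive fold changes among called genes of 50 CPM or more were those of MGP and HGF. With 33 and 46 UMIs in the other cells, both passed the minimum of 50 UMIs only through the members. They also reached 50 CPM only in members, so these limits favoured positive fold changes among such rare genes. MGP, a matrix protein that inhibits calcification, was at 75.2 and 39.2 CPM in members and 2.42 and 2.75 CPM in other cells (log2 fold change 4.28), but 13 of its 38 UMIs in members came from 1 cell. HGF, the ligand of the MET receptor, was at 60.2 and 58.7 CPM in members and 4.47 and 3.03 CPM in other cells (log2 fold change 3.98, SE 0.40; edgeR adjusted p = 9.22e-21), with UMIs in 22 members. MGP UMIs were found in 18 members and in 24 of the other cells (1.32%), and HGF UMIs in 31 of the other cells (1.7%). Together they were found in 7 members, 1 of SplitA and 6 of SplitB, and in none of the 1820 other cells. At such low shares hardly any other cell would hold both genes even if they were unrelated, so this 0 is no result.

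MXRA8, a matrix remodelling-associated surface protein, was at 48.9 and 78.3 CPM in members and 10.8 and 9.22 CPM in other cells (log2 fold change 2.71). CD9, a tetraspanin, was at 94.1 and 71.8 CPM in members and 8.56 and 16.1 CPM in other cells (log2 fold change 2.58, SE 0.27; edgeR adjusted p = 1.79e-18), and PTGER2, a receptor of prostaglandin E2, had a log2 fold change of 2.50. TGFB1, the growth factor TGF-beta 1, was at 79.0 and 34.8 CPM against 13.2 and 14.2 CPM (log2 fold change 1.86). MGP, HGF, PTGER2 and TGFB1 had no adjusted p in DESeq2 because of low counts, whereas MXRA8 and CD9 were called by it. The remaining genes of this group were DCX, RRAS, SCN9A and CYSTM1, with log2 fold changes of 2.21, 2.19, 2.09 and 1.80.

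DCX, doublecortin, is a microtubule protein of young neurons, and neuronal genes as a group went both ways. Of 24 tested structural genes of neurons 6 were higher and 5 lower, with a median log2 fold change of 0.17. This median had no stable sign, at 0.067 without SplitA, -0.0342 with 200 members, -0.0503 with 50 members and -0.0442 when cells were ranked by S100A10 only. Besides DCX, the neuronal filament gene PRPH and the growth cone gene DPYSL3 were higher, with log2 fold changes of 2.67 and 1.47. ELAVL4, an RNA-binding protein of neurons, was lower (log2 fold change -0.74), as were STMN4 (-1.21), MAP2 (-0.98), ELAVL2 (-2.28) and NNAT (-0.80). STMN2, the most abundant of the list, was at 786 and 877 CPM in members and 708 and 666 CPM in other cells and was not called (log2 fold change 0.24).

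Cytoskeletal and vesicle genes showed smaller differences. Of 30 tested genes of actin, adhesion and the nuclear lamina, 6 were higher and 1, TPM1, lower (log2 fold change -0.88), with a median of 0.26. This median stayed positive under every setting tried, from 0.107 when cells were ranked by S100A10 only to 0.315 without SplitA. It was 0.136 with a hashtag limit of 100 counts and 0.149 with 200 members. LMNA, which encodes lamins A and C, was at 218 and 141 CPM in members and 82.2 and 86.5 CPM in other cells (log2 fold change 0.96), and PFN1, the actin-binding profilin, had a log2 fold change of 0.54. TMSB10, the most abundant of this list, was not called (log2 fold change 0.11). Of 14 lysosome and secretory pathway genes 6 were higher, among them the cholesterol carrier NPC2 (log2 fold change 1.25) and the ferritin chain FTH1 (0.53).

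B2M, the light chain of HLA class I, was at 602 and 361 CPM in members and 249 and 246 CPM in other cells (log2 fold change 0.84, edgeR adjusted p = 5.05e-11). HLA-C had a log2 fold change of 2.51, at 30.1 and 19.6 CPM in members and 3.54 and 4.27 CPM in other cells. They were the 2 called genes of 6 tested in the antigen presentation list. Of 10 tested AP-1 and YAP genes only EGR1 was called (log2 fold change 1.06, not called by DESeq2), and of 3 metallothioneins MT1F was higher (1.03). Of 17 tested p53 target genes 1, AEN, was lower, and CDKN1A was not called (log2 fold change 0.79, edgeR adjusted p = 0.0733), at 22.6 and 63.1 CPM in members and 24.9 and 27.3 CPM in other cells.

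Many genes of DNA replication and mitosis were lower in the members. Of 19 tested S phase genes 12 were lower, 7 not called and none higher, with a median log2 fold change of -0.97. Of 22 genes of G2 and mitosis 13 were lower, 9 not called and none higher, with a median of -0.70. DESeq2 called 1 of the first group and 5 of the second. CDT1, the licensing factor of replication, was at 3.76 and 17.4 CPM in members and 60.5 and 58.1 CPM in other cells (log2 fold change -2.30, SE 0.38; edgeR adjusted p = 1.07e-07).

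H4C3, a replication-dependent histone H4 gene, was at 1020 and 737 CPM in members and 2534 and 2610 CPM in other cells (log2 fold change -1.64, SE 0.09; edgeR adjusted p = 4.28e-65). Its level per cell still ranged up to 72.0 UMIs per 10,000 in SplitA members and 63.7 in SplitB members, so some members carried much of it, while the median member had 1.69 and 1.85. TOP2A and MKI67, made by cycling cells, had log2 fold changes of -1.39 and -1.07. RRM2, a subunit of ribonucleotide reductase, and CENPA, the centromeric histone, had log2 fold changes of -1.54 and -1.64 and were not called by DESeq2.

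Because cycle genes moved with membership, the comparison was repeated among the cells below the median of the summed cycle genes, 30 members and 385 other cells in SplitA and 46 and 499 in SplitB. It then gave 200 higher and 121 lower genes, and S100A6, TFPI2 and VIM had log2 fold changes of 1.72, 3.18 and 1.53. All 6 granin and neuropeptide genes were again higher, while 1 of 18 S phase genes and 1 of 13 G2 genes were called lower. The median log2 fold change of the S phase genes was still -0.678 in this smaller comparison and that of the G2 genes -0.271, and H4C3 was called lower (log2 fold change -1.195, edgeR adjusted p = 1.71e-06). Ribosomal protein genes also moved: they held 32.0% and 33.2% of the UMIs of members and 37.6% of those of other cells in both flasks, and 38 of 83 were lower and 2 higher, with a median log2 fold change of -0.21. The part of the ribosomal genes in the other differences was not tested.

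The remaining genes with large negative fold changes were DSCR8, CAMK2N1, KIF1A, C1orf21 and PRKAG2-AS1. DSCR8, a gene of chromosome 21 with little known function, had 1 UMI in the members of each flask, 3.76 and 2.18 CPM, against 62.9 and 56.2 CPM in other cells, where 32.7% of the cells had a UMI (log2 fold change -4.44, SE 0.55; edgeR adjusted p = 2.19e-13). CAMK2N1, an inhibitor of the kinase CaMKII, was at 18.8 and 28.3 CPM in members and 129 and 116 CPM in other cells (log2 fold change -2.34). KIF1A, a motor of axonal vesicle transport, was at 15.1 and 28.3 CPM against 78.7 and 74.2 CPM (log2 fold change -1.75). C1orf21 and PRKAG2-AS1 had log2 fold changes of -1.66 and -1.53. PRKAG2-AS1 is an antisense transcript, and the strand used in counting is not given in the sources used here.

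The difference did not end at the 100th rank, as the plot of levels by rank shows. Over both flasks S100A6 was at 1210.5 CPM in ranks 1 to 50, 1059 in ranks 51 to 100 and 825 in the next 100 cells. It was at 368 CPM in the 300 cells after these and 185.2 CPM in the rest. Cells past rank 358 had no UMI of the ranked genes and were ordered by barcode. The group of 300 cells therefore mixes cells with and without such UMIs, and the last group has none. TFPI2 followed the same order, with 384, 327, 184, 40.4 and 20.4 CPM. Within SplitA both genes were higher in ranks 51 to 100 than in ranks 1 to 50, S100A6 at 1311 against 1141 CPM and TFPI2 at 316 against 290 CPM. GAL was at 6478 and 6438 CPM in the first and the second 50 ranks, at 4039 CPM in the next 100 cells, and at 1232 and 649 CPM thereafter.

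CHGB did not follow this order, with 659 CPM in ranks 1 to 50, 664 in ranks 51 to 100 and its highest level of 829.6 CPM in the next 100 cells. H4C3 was at 749, 919, 1206, 2205 and 2804 CPM over both flasks, higher in each later group of SplitB, and in SplitA at 1044 CPM in ranks 1 to 50 and 1001 CPM in ranks 51 to 100 before the same order. With every cell thinned to 2000 UMIs, S100A6 was at 1002, 871, 760.4, 312 and 186 CPM, in the same order as before.

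**Figure D4:**
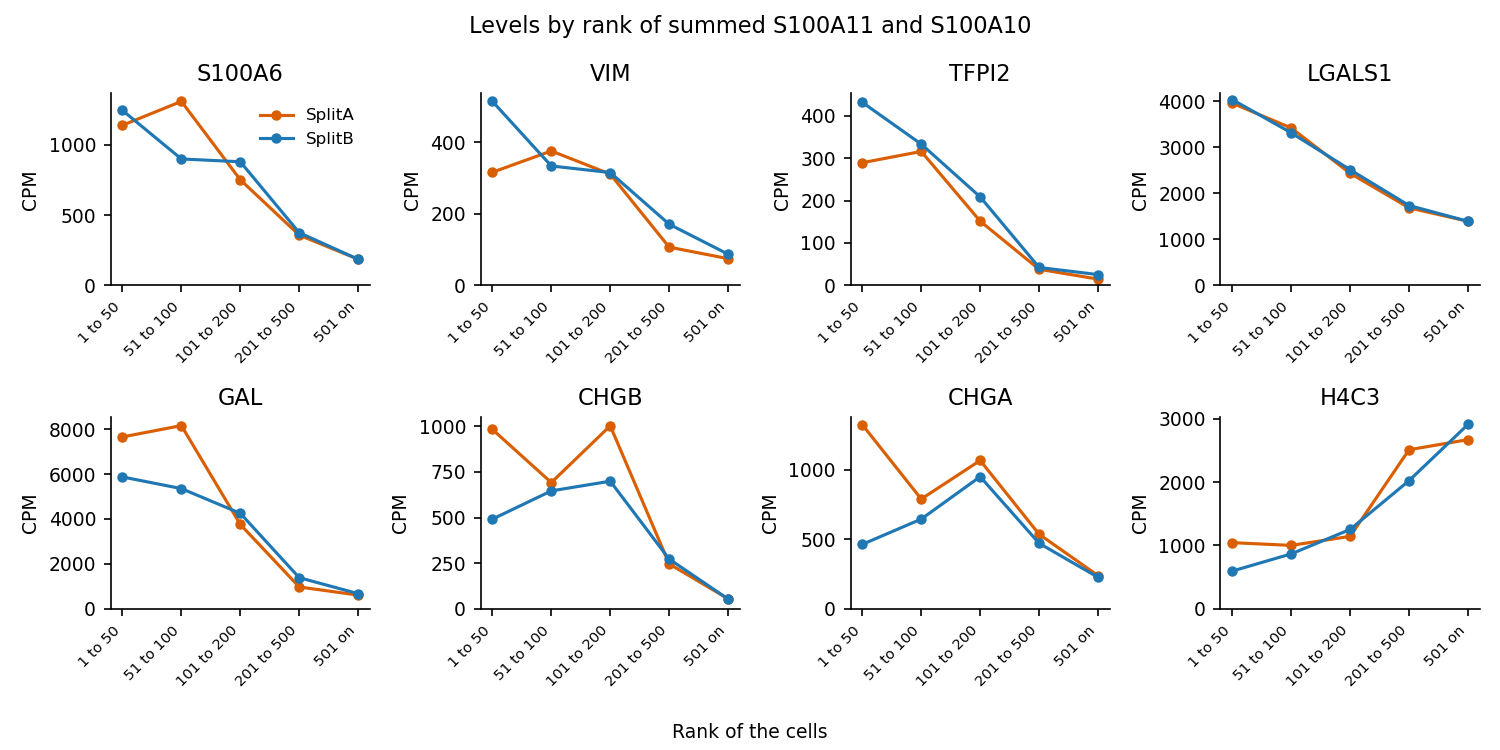
Level of 8 genes (vertical axes, CPM on a linear scale from 0) in cells grouped by rank of the summed S100A11 and S100A10 level (horizontal axes), each flask apart. S100A6, TFPI2, LGALS1 and GAL are high in ranks 1 to 100, lower in the next 100 cells and lowest in the last group in both flasks, VIM, CHGB and CHGA are still near the level of ranks 51 to 100 or above it in the next 100 cells, and H4C3 is highest in the last group.

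By chromosome, the genes called higher were 6.44% of those tested on chromosome 1, where S100A11 and S100A10 lie, and 7.24% on chromosome 7, against 4.36% of all tested genes. The median log2 fold change was 0.04 on chromosome 1 and -0.06 on chromosome 7, close to the -0.05 of all genes.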

How the data were processed

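The deposited values are raw UMI counts per gene and hashtag for each cell, without normalization. The authors mapped reads to GRCh38 with STAR 2.7 and counted UMIs with Cell Ranger 4.0.0, and the annotation version is not given in the sources used here. Of 33538 gene identifiers 33113 had a symbol in the reference table. Flasks were assigned from the hashtag counts, with SplitA as replicate 1 and SplitB as replicate 2, and multiplets were left out. Cells of a flask are not replicates, so UMI counts were summed into 4 sums of 266150 and 5374397 (SplitA members and other cells) and of 460360 and 7263777 UMIs (SplitB), totals from which those of S100A11 and S100A10 were then taken out. The remaining counts were compared in edgeR 4.0.16 (quasi-likelihood test, TMM factors, flask as a block, a minimum of 50 UMIs, Benjamini-Hochberg adjustment at 0.05) in R 4.3.3, and in DESeq2 1.42.0 as an alternative, which leaves the adjusted p of low genes empty. Members and other cells of a flask share the culture, which pairs them by design. Intervals are exact Poisson or Clopper-Pearson intervals at 95%. Thinning drew 2000 UMIs per cell, which left out 1 other cell of SplitB.

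The markers and the 15 genes with the largest positive and the 10 with the largest negative fold change among called genes of 50 CPM or more with the same direction in both flasks were named. Of 22 lists (362 genes) the most abundant and the called genes could be named, and where a list had many called genes some are given only in its counts. The members and lists were chosen with earlier results of these data known, so no list was tested. On simulated data of this comparison (10366 genes, at least 20 expected UMIs in the members), 52.9% of 17 genes raised and 17.6% of 17 genes lowered 2-fold were called. At 4-fold 100% of 18 and 75.0% of 12 were called, and of 3487 unchanged genes 0.0287%, so the shares of changed genes rest on few genes. The simulated noise had a fixed size not estimated from these data, was independent between genes and sums, and no cells were chosen by expression. The share of unchanged genes called therefore does not carry over to the real calls. Tables were made in Python 3.11.15 with pandas 2.3.3 and scipy 1.17.1 and plots with matplotlib 3.10.9. Alternatives concerned the number of members, the ranking, the filters, the scaling, matched other cells and leaving out each flask.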

Additional observations from a re-analysis of the deposited data

Results flagged for a closer look

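Cells outside the filters also reached the level of the 100th member, 8.37 UMIs of S100A11 and S100A10 per 10,000. Among 807 cells with 15% or more mitochondrial UMIs, 11 did so (1.36%, exact binomial interval 0.682 to 2.43), of which 2 had 3 or more UMIs of both genes, and their median depth was 1139 UMIs. Among 57 cells with fewer than 1000 genes and less than 15% mitochondrial UMIs, 5 did so (8.77%, interval 2.91 to 19.3), 3 of them with 3 or more UMIs, at a median of 1441 UMIs. These cells were not used in the comparisons, and whether they are of the same kind as the members was not tested.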

How the results depend on the processing

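Under every setting tried for these genes, with 2 of the settings added after the data were seen, the log2 fold changes of S100A6, TFPI2 and VIM stayed positive and called wherever a test could be run. Without one flask no residual degrees of freedom remain, so these are values with no test, from 1.96 to 2.28 for S100A6, 3.17 to 3.39 for TFPI2 and 1.80 to 1.85 for VIM. The counts of called genes depended on the settings. They were 708 higher and 623 lower with 200 members, 142 and 110 with 50 members, 123 and 78 by DESeq2, 200 and 121 among cells low in cycle genes, 285 and 220 with the members that had UMIs of both genes (added), and 159 and 105 against other cells matched in GAL (added). With no replicate block for the pairing by flask they were 518 and 446. The median of the Schwann cell genes, 0.635 on 2 low genes as reported and on 1 gene under some settings, was -0.0475 with 50 members, 0.21 with a minimum of 200 UMIs, -0.24 against cells matched in GAL, 0.20 against cells matched in UMIs, 1.11 when cells were ranked after thinning and 0.18 without the 5% of cells with most UMIs, and it ran from 0.165 to 0.761 when a flask was left out. The median of the mesenchymal transcription factors was -0.608 without SplitB, -0.045 without SplitA and 0.0118 among cells low in cycle genes. The cause of these differences was not tested. Of the 100 members, 74 were also among the first 100 after thinning to 2000 UMIs. Depth limits the rare genes, since the members hold few UMIs of genes such as CD44, SOX9 and S100B.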
